A study of Mus musculus with 4 samples.

Results

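The scaffold genes of the postsynaptic density described here were the rows of the deposited table named Dlg1, Dlg2, Dlg3, Dlg4, Shank1, Shank2, Shank3, Homer2 and Homer3. They made up 9 of the 28193 genes in the table, and all 9 passed the count minimum, as 22338 genes did. The libraries hold mRNA bound to HA-tagged ribosomes (fosTRAP-seq) of neurons that were active during an earlier sleep deprivation (SD). All mice were male C57BL/6J mice aged 3 to 5 months that carried a viral, Fos-driven and tamoxifen-inducible Cre together with a Cre-dependent HA-tagged Rpl22. All of them were kept awake for 5 h on day 0, with 4-hydroxytamoxifen given at ZT 2 to tag the active neurons. On day 7 the SD mice were kept awake for a further 5 h by gentle handling, the non-sleep deprived (NSD) mice were left to sleep, and CA1 was taken at ZT 5. The NSD group therefore also carried the tag and the first sleep deprivation, and the comparison concerns the second one. Each group had n = 2 libraries, each a pool of 5 mice, and 1 library of each group came from batch 1 and 1 from batch 2. Every p-value below sets a difference against the spread between such pools, not between single mice. The fits estimated that spread partly from other genes. Where the batch entered as a block, it was the spread left after the batch difference. The labels name the tissue dorsal hippocampus and the genotype cFos-Cre:Ribotag, while the study's methods describe virus injection and microdissected CA1.

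The postsynaptic density is a protein layer under the membrane of excitatory synapses, and its scaffolds stack in order. The DLG proteins, also called the PSD-95 family of membrane-associated guanylate kinases (MAGUKs), sit nearest the membrane and bind glutamate receptors and their partners through PDZ domains. DLG-associated proteins (Dlgap) link them to the Shank proteins, and Shank proteins bind Homer proteins, which reach to metabotropic glutamate receptors and to calcium release channels inside the cell.

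In genome build GRCm39, Dlg1 lies on chr16:31482261-31693947, Dlg2 on chr7:90125880-92098455, Dlg3 on chrX:99811328-99862016 and Dlg4 on chr11:69907768-69938348, all on the plus strand. Shank1 lies on chr7:43959677-44009996, Shank2 on chr7:143555665-143978231 and Shank3 on chr15:89383826-89444464, also on the plus strand. Homer2 lies on the minus strand of chr7:81250229-81357275 and Homer3 on the plus strand of chr8:70735477-70747011. All are protein-coding, and the counts cover whole genes, so isoforms of 1 gene were not separated. These positions are those of the deposited table, and the promoter windows were placed with GENCODE M39 as well, which starts some of the genes further upstream. The 250 bases before the outermost start of each gene in either annotation were searched on both strands for 5 short motifs that activity-regulated factors are known to bind. They were the cAMP response element TGACGTCA, its half-site TGACG (which each full element also contains), the AP-1 motif TGANTCA, the E-box CACGTG and the Egr motif GCGTGGGCG. Among 16930 protein-coding promoters, 1.36% held the full cAMP response element, 18.6% the half-site, 5.3% the AP-1 motif, 6.47% the E-box and 0.484% the Egr motif. Of the 9 scaffold promoters, 0 held the cAMP response element, its half-site or the AP-1 motif, 1 held the E-box (Dlg2) and 1 held the Egr motif (Shank3, on the other strand). The Shank3 window contains 152 annotated exon bases, while the windows of the other members contain 0. Shown here are the windows of Dlg1, the scaffold gene with the smallest p-value between SD and NSD, on chr16:31481937-31482186, and of Dlg2, on chr7:90125630-90125879, both on the plus strand and with the E-box in capitals.
Dlg1: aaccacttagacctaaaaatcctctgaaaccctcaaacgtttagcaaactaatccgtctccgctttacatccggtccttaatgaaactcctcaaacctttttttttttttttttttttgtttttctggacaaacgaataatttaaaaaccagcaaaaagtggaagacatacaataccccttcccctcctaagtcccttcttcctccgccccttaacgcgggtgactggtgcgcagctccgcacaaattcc
Dlg2: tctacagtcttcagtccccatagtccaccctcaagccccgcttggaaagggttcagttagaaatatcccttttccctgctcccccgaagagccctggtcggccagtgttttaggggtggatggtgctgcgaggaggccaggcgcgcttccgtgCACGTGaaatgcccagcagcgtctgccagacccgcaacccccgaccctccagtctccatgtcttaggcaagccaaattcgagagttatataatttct
The Dlg1 window held 42.0% G and C with 10 CpG and no searched motif, and the Dlg2 window held 56.4% with 12 CpG, against a median of 53.2% and 8 CpG over all protein-coding promoters. A match or its absence describes the letters of these windows and no binding.

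The counts summed to between 153511705 and 195910235 per library, and the scaffold genes held between 1115 counts (Homer3 in SD 2) and 682734 counts (Shank1 in SD 2) in a library. Levels are given in CPM (counts scaled to a common library size) after TMM scaling (factors of 0.965 to 1.02). The 8 CA1 pyramidal markers summed to 6111 to 6674 CPM and the 5 dentate granule markers to 101 to 121 CPM. The 7 interneuron markers summed to 759 to 838 CPM. The 7 astrocyte markers summed to 3018 to 3596 CPM, of which Slc1a2 alone held 2584 to 3147 CPM. The 8 oligodendrocyte markers summed to 1581 to 1910 CPM, so RNA of these marker lists was present in every library. For 6 of the 7 endothelial markers each SD library was below each NSD library (sums of 39.9 and 56.2 CPM in NSD 1 and NSD 2 and of 33.1 and 22.2 CPM in SD 1 and SD 2), and Wfs1, Fibcd1 and Neurod6, among the CA1 markers, were lower in SD in the same way. The part of these shifts in the values below was not tested, and in pooled tissue fewer tagged cells of a type and less RNA per cell cannot be told apart.

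The question was whether a second sleep deprivation changed the ribosome-bound mRNA of these scaffolds in previously tagged neurons. In the SD libraries, 8 of the 9 genes had a higher fitted level (7 with plain library totals, where Dlg3 turned), but 0 of 9 passed the test in either direction (edgeR's quasi-likelihood test with a fold change over 1.2 and an adjusted p below 0.05). The same test called 0.77% of all genes higher and 2.33% lower, and 0.952% and 0.54% of the 15551 protein-coding genes. At an unadjusted p under 0.05, 1 of the 9 was higher, against 6.86% of all genes and 8.86% of the protein-coding genes. At that level 2 of the 9 were higher with the batch as a block (Dlg1 and Shank3), against 10.6% of all genes and 13.8% of the protein-coding genes, and 5 of the 9 by DESeq2 (Dlg1, Dlg4, Shank1, Shank2 and Shank3), against 8.82% and 11.6%. With the batch as a block, 1 of the 9 was called higher and 0 lower, where the fit called 2.99% of all genes higher and 8.47% lower (3.77% and 3.29% of the protein-coding genes). DESeq2 also called 1 of the 9 higher and 0 lower, where it called 2.99% of all genes higher and 5.79% lower (3.91% and 1.79% of the protein-coding genes). In both cases the gene was Dlg1, which edgeR with DESeq2's size factors also called higher, as it did 1.03% of all genes. The log2 fold changes ran from -0.20 (Homer3) to 0.30 (Dlg1), with a median of 0.12, beside -0.02 over all genes tested and 0.02 over the protein-coding genes. A fold change above 1 was found in 47.2% of all genes and in 54.2% of the protein-coding genes.

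**Figure D1:**
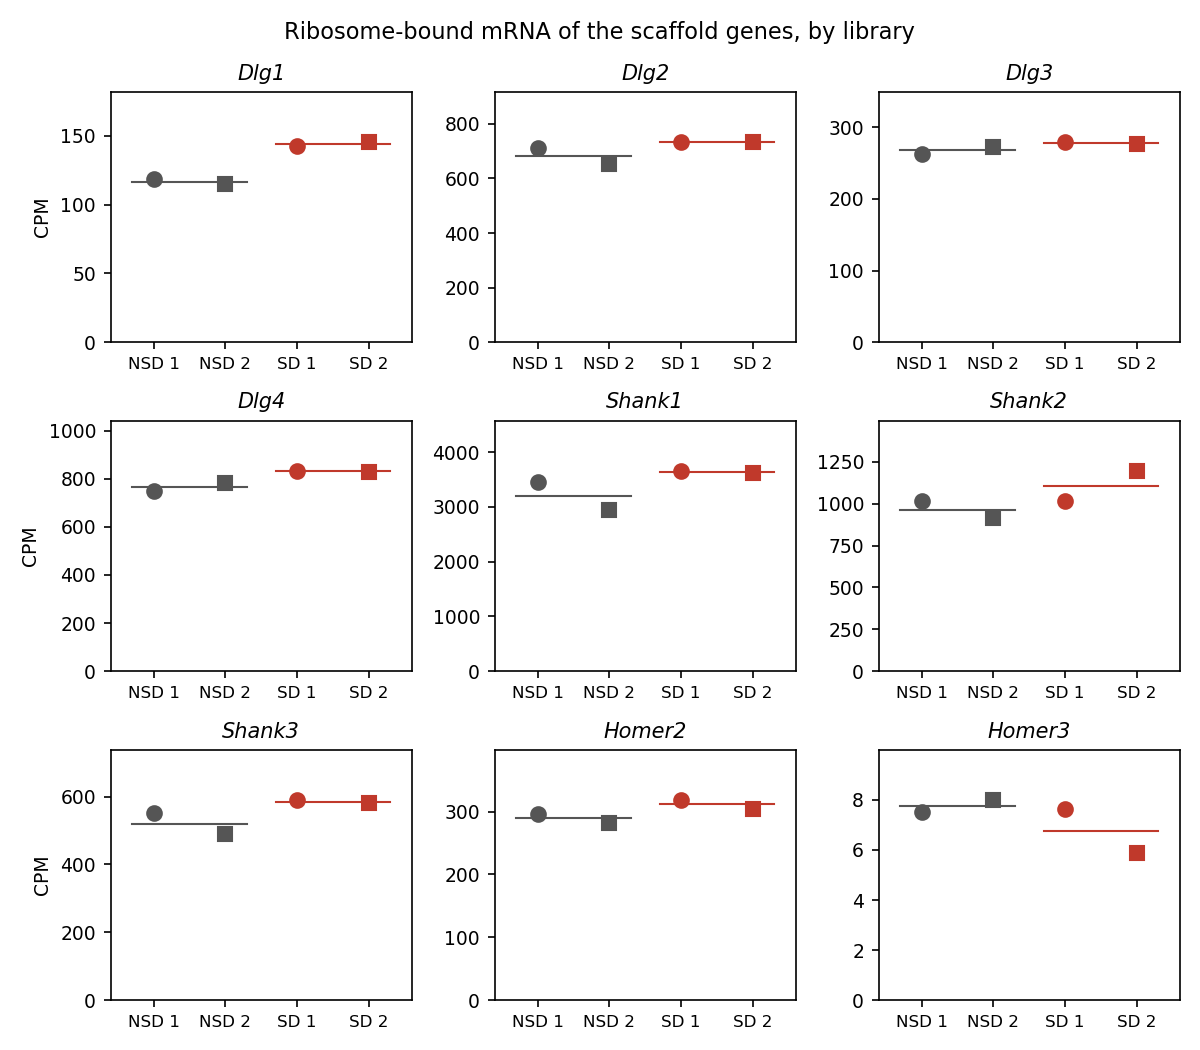
Level of each scaffold gene in CPM (vertical axis from 0) in the 4 libraries, with circles for batch 1, squares for batch 2 and horizontal lines at the group means. The SD libraries of Dlg1 (142.5 and 145.6 CPM) lie above its NSD libraries (118.6 and 115.0 CPM), while those of Shank2 and Homer3 overlap the NSD libraries.

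For 7 of the 9 genes each SD library exceeded each NSD library, as it did for 22% of all genes and 26.5% of the protein-coding genes. The reverse held for 0 of the 9, for 27.5% of all genes and for 20% of the protein-coding genes. These counts differed between scalings. The count of genes with SD higher was 8 with median-ratio size factors (25.3% of all genes), 7 with TMM factors of the protein-coding genes (19.5%), and 2 (Dlg1 and Dlg4) with plain library totals (14.2% of all genes and 16.4% of the protein-coding genes). The count with SD lower was 1 (Homer3) with TMM factors of the protein-coding genes (30.1% of all genes) and with plain library totals (34.9%).

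Dlg1 (ENSMUSG00000022770) encodes SAP97, a MAGUK that carries AMPA receptor subunits and is also found in axons and epithelia. It measured 118.6 and 115.0 CPM in NSD 1 and NSD 2 and 142.5 and 145.6 CPM in SD 1 and SD 2. The pools of each group lay close together, and the gap between the groups was wider than the spread in either (standard deviations of 2.51 CPM in NSD and 2.18 CPM in SD). The log2 fold change was 0.30 ± 0.067 (SE; 95% interval 0.15 to 0.46), a 1.23-fold higher level, with an adjusted p of 0.0521 by edgeR, just above the threshold of 0.05. With the batch as a block the adjusted p was 0.0041, and by DESeq2 it was 3.97e-04, so Dlg1 was called higher by both. Within the batches the difference was 0.27 in batch 1 and 0.34 in batch 2 on the log2 scale. It was the only scaffold gene of the 9 with an interval that did not reach 0.

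The other DLG genes moved less. Dlg2 (PSD-93), which anchors receptors and potassium channels, measured 712 and 654 CPM in NSD and 734 and 732 CPM in SD, a log2 fold change of 0.10 ± 0.092 (SE; adjusted p 0.636, edgeR). Without NSD 1 it was 0.19 and without NSD 2 it was 0.04. Dlg3 (SAP102), a trafficking scaffold of NMDA receptors that is prominent in young neurons, measured 263 and 273 CPM in NSD and 280 and 277 CPM in SD. Its log2 fold change of 0.05 ± 0.075 (SE; adjusted p 0.789, edgeR) was the closest to 0 of the 9, and it was 0.08 without NSD 2 or without SD 2 and turned to -0.01 with plain library totals. Dlg4 (PSD-95), the most abundant DLG scaffold of mature excitatory synapses, measured 751 and 781 CPM in NSD and 832 and 829 CPM in SD, a log2 fold change of 0.12 ± 0.089 (SE; 95% interval -0.09 to 0.32; adjusted p 0.559, edgeR). In all 3 genes the SD libraries lay above the NSD libraries by a margin that the fit could not tell from the spread between pools.

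The Shank genes encode the large scaffolds that join the DLG and Homer layers and reach the actin cytoskeleton. Shank1 measured 3448 and 2948 CPM in NSD and 3653 and 3610 CPM in SD, with a log2 fold change of 0.18 ± 0.127 (SE; adjusted p 0.509, edgeR). Shank3, whose human gene is lost in Phelan-McDermid syndrome, measured 551 and 489 CPM in NSD and 590 and 580 CPM in SD, with a log2 fold change of 0.17 ± 0.093 (SE; adjusted p 0.379, edgeR). Shank2 measured 1015 and 914 CPM in NSD and 1014 and 1196 CPM in SD, a log2 fold change of 0.20 ± 0.115 (SE; adjusted p 0.421, edgeR), and its groups overlapped. All 3 Shank genes were lowest in NSD 2, and within batches the log2 differences were smaller in batch 1 (0.08, -0.0009 and 0.10 for Shank1, Shank2 and Shank3) than in batch 2 (0.29, 0.39 and 0.25). NSD 2 also had the lowest sum of astrocyte markers, 3018 CPM against 3476 to 3596 CPM in the other libraries. Most of that sum was Slc1a2 (2996 and 2584 CPM in NSD and 3102 and 3147 CPM in SD), and NSD 2 was the lowest library for 5 of the 7 markers, all but Aqp4 and Slc1a3. The part of this in the Shank values was not tested. Without NSD 2, the log2 fold changes of Shank1, Shank2 and Shank3 were 0.08, 0.12 and 0.09, and without NSD 1 they were 0.33, 0.30 and 0.29. That of Shank2 was 0.31 without SD 1 and 0.09 without SD 2.

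Homer proteins bind Shank and group I metabotropic receptors through an EVH1 domain and join into tetramers through a coiled coil. Homer2 measured 297 and 282 CPM in NSD and 318 and 304 CPM in SD, a log2 fold change of 0.11 ± 0.079 (SE; 95% interval -0.07 to 0.29; adjusted p 0.542, edgeR), with differences of 0.10 and 0.11 in batches 1 and 2. Without NSD 1 its log2 fold change was 0.17 and without NSD 2 it was 0.07. Homer3, which is best known from Purkinje cells, was the only one of the 9 with a lower fitted level in SD. It measured 7.51 and 7.99 CPM in NSD and 7.63 and 5.90 CPM in SD, a log2 fold change of -0.20 ± 0.149 (SE; adjusted p 0.555, edgeR). Its groups overlapped with TMM factors of all genes, though not with those of the protein-coding genes or with plain library totals. With TMM factors of all genes, its log2 difference was 0.02 in batch 1 and -0.44 in batch 2. Without SD 2 its log2 fold change was -0.0032 and without SD 1 it was -0.39. Its value is uncertain for a further reason, since Homer3 shares 1153 exon bases with Ddx49 on the other strand, whose count was 166% of that of Homer3, and the use of strand in counting is not given in the sources used here.

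**Figure D2:**
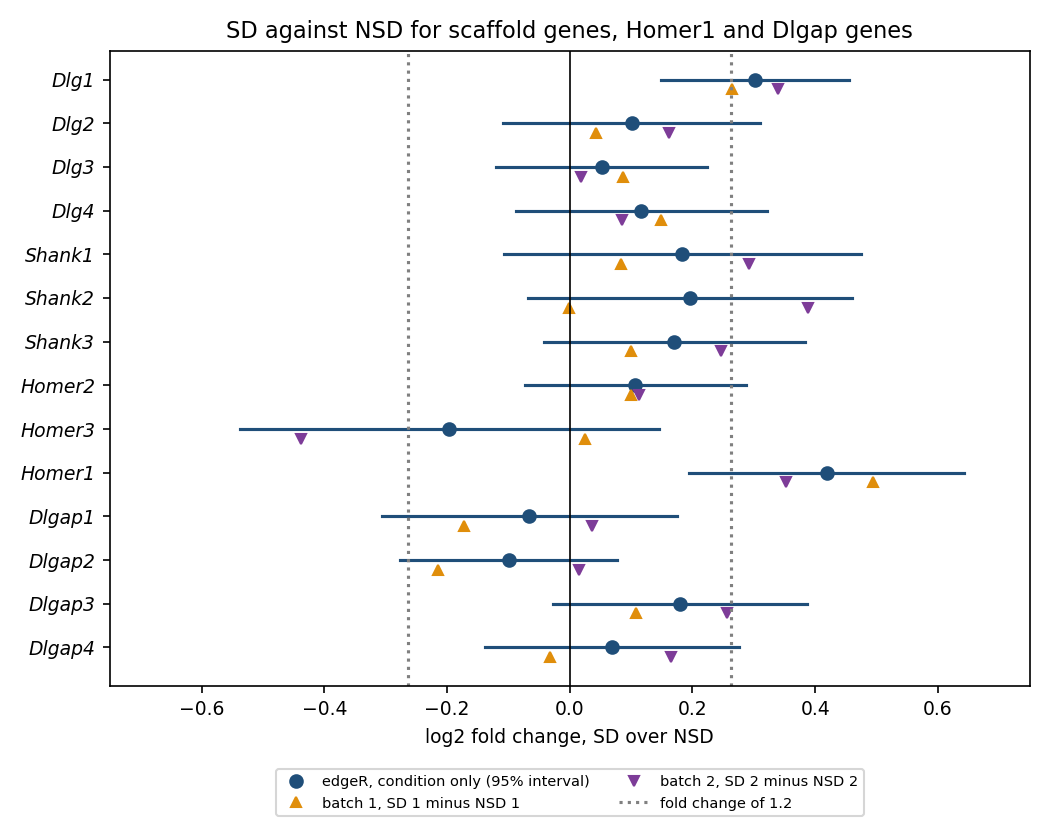
Log2 fold change of SD over NSD for the 9 scaffold genes, Homer1 and the Dlgap genes (circles with 95% intervals from edgeR), with the difference within batch 1 (upward triangles) and batch 2 (downward triangles) and dotted lines at a fold change of 1.2. The intervals of Dlg1 (0.15 to 0.46) and Homer1 (0.19 to 0.64) lie above 0, and the others cross 0.

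The neighbours of these proteins in the stack were set beside them. Homer1, whose gene gives the long scaffold and the short activity-induced Homer1a, measured 185 and 220 CPM in NSD and 260 and 280 CPM in SD. Its log2 fold change was 0.42 ± 0.098 (SE) with an adjusted p of 0.0610 by edgeR, 0.00115 with the batch as a block and 2.34e-04 by DESeq2. The count joins both forms, so they could not be told apart. Of the 4 Dlgap genes that bridge DLG and Shank, 0 were called by any of the 3 tests, and their median log2 fold change was 0.0013. Dlgap1 measured 1349 and 1309 CPM in NSD and 1197 and 1342 CPM in SD (log2 fold change -0.07, adjusted p 0.814, edgeR), and Dlgap2 measured 153 and 141 CPM in NSD and 132 and 142 CPM in SD (-0.10, adjusted p 0.566). Dlgap3 measured 432 and 384 CPM in NSD and 466 and 458 CPM in SD (0.18, adjusted p 0.335), and Dlgap4 533 and 513 CPM in NSD and 521 and 576 CPM in SD (0.07, adjusted p 0.767). Of the 4, Dlgap3 alone had no overlap between the groups, with SD higher, an order that 22% of all genes had.

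Of 15 other MAGUKs and Lin7 partners, 0 were called by edgeR, beside 0.77% of all genes called higher and 2.33% lower. A log2 fold change above 0 was found for 11 of the 15, beside 47.2% of all genes and 54.2% of the protein-coding genes. The median was 0.12. Dlg5, a MAGUK of cell polarity, had the smallest p-value among them, with 58.33 and 49.97 CPM in NSD and 64.4 and 68.1 CPM in SD (log2 fold change 0.29, adjusted p 0.104, edgeR). With the batch as a block its adjusted p was 0.0133 and it was called higher. Its log2 fold change was 0.44 without NSD 1 (adjusted p 0.0337) and 0.19 without NSD 2 (0.205). Pals1, a polarity MAGUK that binds Lin7, had a log2 fold change of 0.21 (adjusted p 0.132, edgeR). Of 26 further adaptors and signalling proteins of the postsynaptic density, edgeR called 1 higher and 0 lower, beside 0.77% and 2.33% of all genes. A log2 fold change above 0 was found for 16 of the 26, and the median was 0.03. Each SD library exceeded each NSD library for 6 of them (22% of all genes), and the reverse held for 4 (27.5% of all genes). The gene called higher was Dynll2, a dynein light chain that binds Dlgap1, with 291 and 312 CPM in NSD and 415 and 395 CPM in SD. Its log2 fold change was 0.43 ± 0.083 (SE; adjusted p 0.0403, edgeR), with an adjusted p of 0.00155 with the batch as a block and of 2.95e-07 by DESeq2. Over 11 alternative settings it ran from 0.37 to 0.48, and the call was lost without NSD 1 (adjusted p 0.0858), without SD 1 (0.0662), among protein-coding genes alone (0.0544), with no count filter (0.0518), with edgeR's filterByExpr (0.0628) and with plain library totals (0.0525). Iqsec3, an Arf exchange factor of inhibitory synapses, had the next smallest p-value, with a log2 fold change of 0.21 (adjusted p 0.239, edgeR).

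Of 5 receptors and channels that Homer proteins bind, 0 were called, with a median log2 fold change of 0.02. The smallest p-values belonged to the ryanodine receptor Ryr2 (-0.12, adjusted p 0.553, edgeR) and the channel Trpc1 (-0.09, adjusted p 0.651). Of 13 enzymes that modify these scaffolds, 0 were called, beside the same shares of all genes, with a median of 0.03. The smallest p-values belonged to Abhd17a, which removes palmitate from PSD-95 (0.20, adjusted p 0.122, edgeR), and to Plk2, an activity-induced kinase that acts on spine scaffolds (-0.22, adjusted p 0.263).

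**Figure D3:**
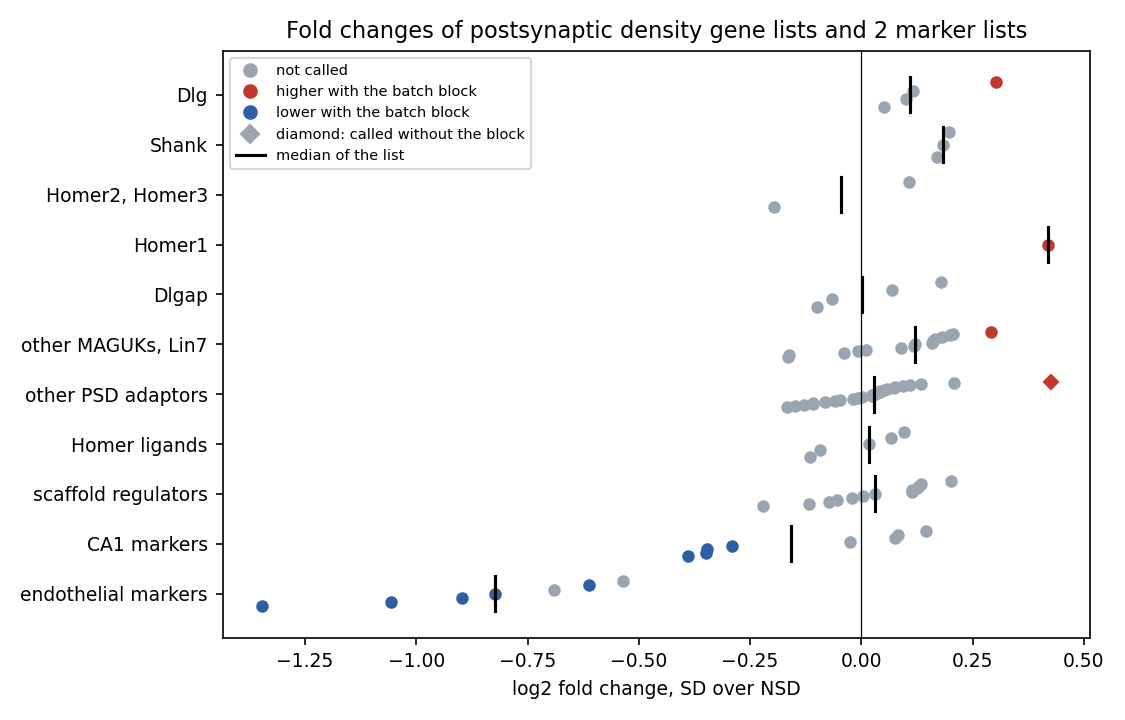
Log2 fold change of SD over NSD for each gene of the scaffold families, their partner lists and the CA1 and endothelial marker lists, with a bar at each list's median, colour for calls with the batch as a block and a diamond for a call without it. The medians are 0.11 for Dlg1 to Dlg4, 0.18 for Shank1 to Shank3, 0.03 for the other adaptors and -0.82 for the endothelial markers.

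Levels of different genes were compared per kilobase of all annotated exon bases of a gene. In the NSD libraries Shank1 was highest, with a mean of 302 CPM per kilobase, followed by Shank2 (62.5), Dlg4 (57.8), Shank3 (56.3), Dlg3 (41.9), Dlg2 (38.2), Homer2 (20.9), Dlg1 (7.71) and Homer3 (1.54). The same order held for the SD means except that Shank3 (63.3) and Dlg4 (62.7) changed places. These 2 neighbours were the only adjacent pair whose libraries overlapped in NSD, with 56.7 and 59.0 CPM per kilobase for Dlg4 and 59.6 and 52.9 for Shank3. The order rests on the length used. Per kilobase of the canonical transcript, which for Homer2 is 1923 bases against 13824 exon bases in all, Homer2 came second in NSD with 150 CPM per kilobase, between Shank1 (323) and Dlg4 (140). Dlg1 and Homer3 stayed lowest with 17.6 and 2.92.

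**Figure D4:**
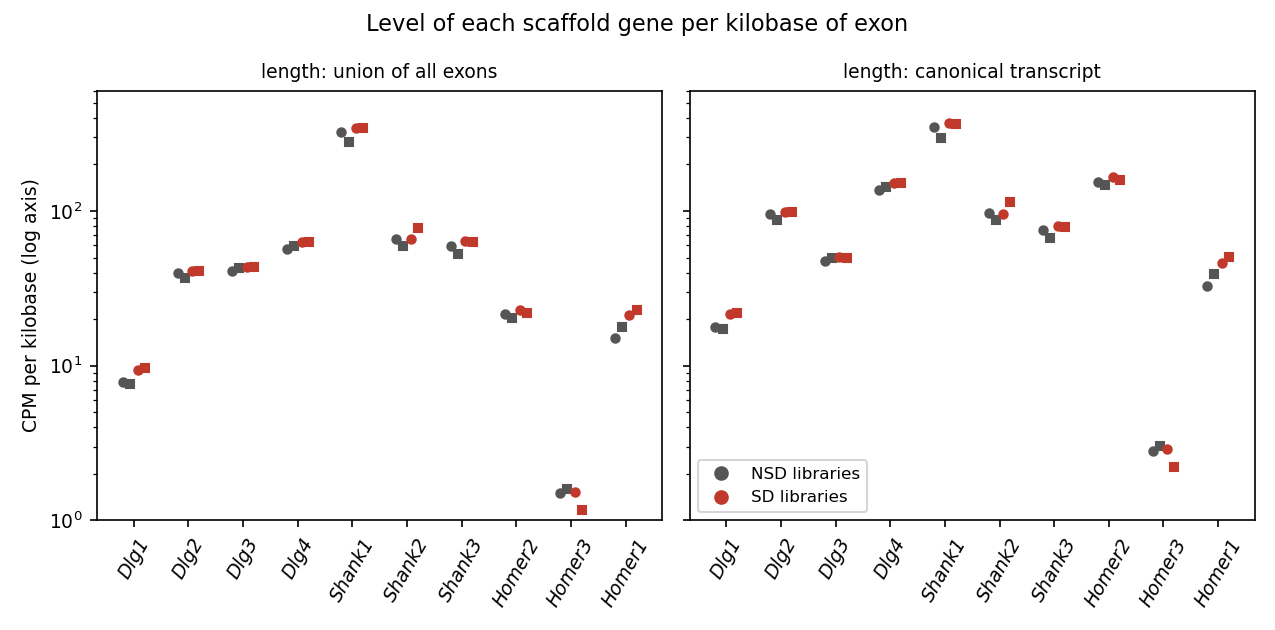
Level of the 9 scaffold genes and Homer1 in CPM per kilobase on a log axis, with the length taken as the union of all exons (left) or as the canonical transcript (right), NSD in grey and SD in red. Shank1 is highest and Homer3 lowest in both panels, and Homer2 moves from a mean of 20.9 to 150 in NSD.

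Within the families, the share of Dlg1 in the 4 DLG genes, per kilobase of exon, was 5.383% and 5.209% in NSD and 5.996% and 6.15% in SD. That of Dlg3 was 28.3% and 29.3% in NSD and 27.8% and 27.6% in SD, while the shares of Dlg2 and Dlg4 overlapped between the groups. The log2 ratio of Dlg1 to Dlg2, Dlg3 and Dlg4 was higher in both SD libraries in each case, by 0.20, 0.25 and 0.19. The 3 ratios share Dlg1, the DLG gene with the largest fold change in these libraries. A higher mean of each ratio followed from that, so they are not 3 separate results. A ratio within a library does not depend on the scaling between libraries. The 3 Shank genes kept nearly the same proportions, with Shank1 at 72.2% and 71.3% of the family in NSD and 72.7% and 70.9% in SD, and all of their shares overlapped. In the Homer family, Homer1 made up 39.5% and 44.8% in NSD and 46.2% and 49.5% in SD, and Homer2 56.6% and 51.2% in NSD and 50.4% and 47.9% in SD. Homer3 held 3.936% and 3.997% in NSD and 3.327% and 2.552% in SD. These shares rest on the length used. With the canonical transcript Homer1 held 17.3% and 20.8% in NSD and 21.6% and 23.8% in SD, Homer2 81.2% and 77.6% in NSD and 77.1% and 75.2% in SD, and the difference of Homer3 between SD and NSD was -0.35 instead of -1.03 percentage points, with the groups in the same order for each gene. The shares and ratios are given as a description, without a test, and an exact permutation test of 2 libraries against 2 cannot give a two-sided p below 0.333.

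The span of Dlg2, 1972576 bases long, contains 25 other genes of the table, of which 22 are annotated as TEC, the annotation's class for transcripts that still await experimental evidence. On the strand of Dlg2 lie 20 of these TEC loci, 17 passed the count minimum, and 9 of the 17 were called lower in SD (52.9%, edgeR), against 18.5% of the 1663 TEC loci tested in the whole table and 2.33% of all genes. With the batch as a block 16 of the 17 were called lower, against 52.6% of all TEC loci and 8.47% of all genes. The count moved with the libraries, filters and test, being 1 of 17 without NSD 1 (1.67% of all TEC loci), 9 without NSD 2 (14.4%), 17 without SD 1 (52.7%), 15 without SD 2 (24.6%), 14 by DESeq2 (41%), 3 with no count filter (2.39%) and 0 with filterByExpr. In each of these fits all 17 had a log2 fold change below 0. Their log2 fold changes ran from -2.92 to -1.25 with a median of -2.37, beside -1.51 over all TEC loci tested. Their summed level was 49.8 and 29.9 CPM in NSD and 11.7 and 4.54 CPM in SD, and relative to the Dlg2 count it was 7.13% and 4.70% in NSD and 1.66% and 0.636% in SD. The summed level was thus lower in each SD library than in either NSD library, while Dlg2 itself had a log2 fold change of 0.10. Of the 20 loci, 1 shares exon bases with Dlg2, and the others share none. The lncRNA Gm45159, on the same strand and with 75 exon bases in common with Dlg2, was also called lower (log2 fold change -1.91, adjusted p 0.0342, edgeR). The TEC locus Gm45161 on the other strand had a log2 fold change of 1.58 (adjusted p 0.0793, edgeR) and was called higher with the batch as a block.

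**Figure D5:**
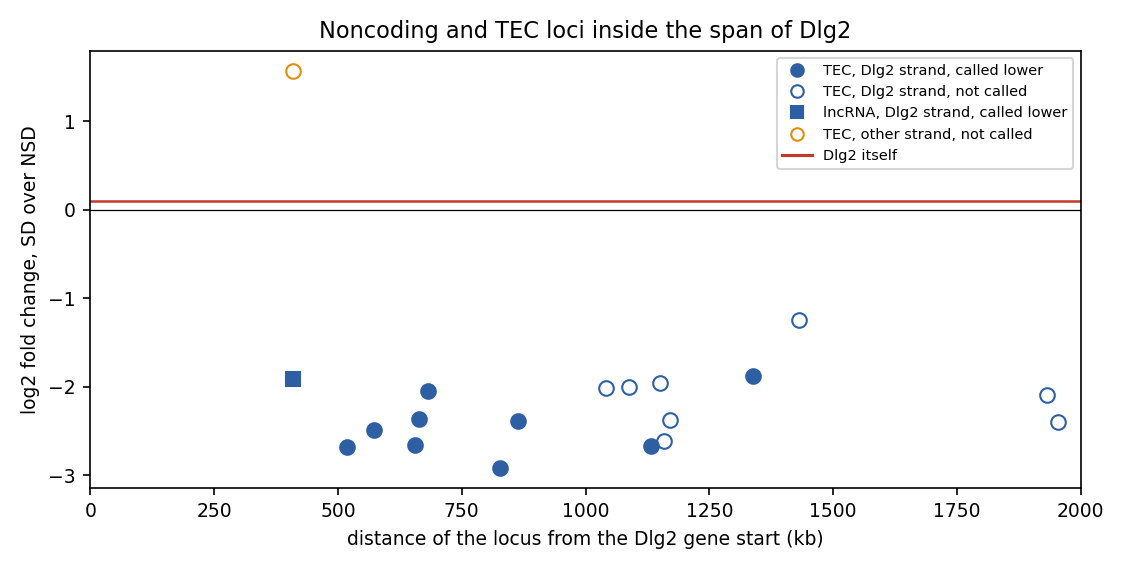
Log2 fold change of SD over NSD of the tested loci inside Dlg2 against their distance from the Dlg2 start in kilobases, with circles for TEC loci, a square for the lncRNA, blue for the strand of Dlg2 and filled symbols for loci called lower. All loci on the strand of Dlg2 lie between -2.92 and -1.25, under the red line of Dlg2 itself at 0.10.

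Loci inside the other scaffold genes were few. Gm49705, a TEC locus on the strand of Dlg1, had a log2 fold change of -1.90 (adjusted p 0.0648, edgeR; called lower with the batch as a block) while Dlg1 had 0.30, and its count was 0.697% of that of Dlg1. Gm14372, an lncRNA on the other strand of Shank2, was called lower (-1.98, adjusted p 0.0481, edgeR). The genes on the other strand that share exon bases with Shank3 (271 bases), Homer2 (550 bases) and Shank1 (339 bases) had counts of 0.603%, 0.285% and 0.0318% of those genes.

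The genes whose levels over the 4 libraries were most like a scaffold gene were found by the distance between centred log2 CPM values, among 8634 protein-coding genes. For Dlg1 they were Shisal1, Vipr1 and Pde11a, for Shank3 they were Vcan, Dlgap3 and Arhgap33, and for Homer2 they were Rprd1b, Samd12 and Spty2d1, all at a distance of 0.015 or less. With 4 libraries such likeness is common, since 259, 430 and 961 genes lay within a distance of 0.1 of Dlg1, Shank3 and Homer2.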

How the data were processed

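fosTRAP-seq libraries of 2 NSD and 2 SD pools were compared. Reads were trimmed and mapped by the authors with STAR 2.7.8a to mm39 (GRCm39), and the deposited values are estimated counts of each Ensembl release 110 gene from Partek Flow's E/M model, not normalized. The library kit was stranded, and the strand setting of the counting is not given in the sources used here. The values were rounded, and the 22338 genes that exceeded 5 counts in all 4 libraries entered edgeR 4.0.16 under R 4.3.3 (TMM, quasi-likelihood F test, condition only, Benjamini-Hochberg adjustment). The thresholds, a fold change of 1.2 and an adjusted p of 0.05, are those of the study's methods, where DESeq2 was the test. The SE was the log2 fold change divided by the root of F. Library log2 CPM used a prior count of 2.

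Alternatives were DESeq2 1.42.0, its size factors in edgeR, a batch block, other count filters, protein-coding genes only and leaving out each library. Plain library totals, further scalings of the order counts and canonical transcript lengths were chosen after seeing the data. The labels give same-numbered libraries the same batch, so the numbers pair them, and their deviations from the group means correlated at 0.178 over genes. The members and gene lists were chosen with earlier results of these data known. Values are given for all 9 members, Homer1 and Dlgap1 to Dlgap4, and in the other lists for called genes and the 2 with the smallest p. Markers of CA2/CA3, interneurons and microglia gave 0 calls without the block. The nearest patterns were sought for the gene with the smallest p of each family, among genes with a mean of at least 10 CPM. Exon positions, promoters and lengths came from GENCODE M39 on GRCm39. Not every listed gene is reported here. Counting error is small at this depth, and the spread between 2 pools per group limits the precision.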

Additional observations from a re-analysis of the deposited data

How the results depend on the processing

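The number of scaffold genes called higher was 0 without a block and 1 with the replicate block, with DESeq2 and with DESeq2's size factors in edgeR (Dlg1 in each case). Leaving out any 1 library left it at 0. The median log2 fold change of the 9 genes, 0.12, ranged from 0.0796 (without NSD 2) to 0.1935 (without NSD 1) over the fits without 1 library, and was 0.0571 with plain library totals. That scaling also lowered the number of members whose SD libraries all exceeded the NSD libraries from 7 to 2 and turned Dlg3 to -0.0076. No other member changed direction, and over 11 alternative settings Dlg1 ran from 0.24 to 0.35, Shank1 from 0.08 to 0.33 and Homer3 from -0.39 to -0.0032. In the partner lists, 1 gene was called, against 3 with the replicate block and with DESeq2 (Homer1, Dlg5 and Dynll2), 0 with no count filter, with filterByExpr and with protein-coding genes only, and 1 to 2 without 1 library. A fit without 1 library assumes that the lone library varies like the other group. The whole-table calls of 172 higher and 520 lower became 668 and 1891 with the replicate block, 669 and 1294 with DESeq2, 229 and 457 with its size factors in edgeR, and 1 and 0 with filterByExpr, which kept 24323 genes. They were 144 and 87 without NSD 1, 239 and 460 without NSD 2, 291 and 1953 without SD 1, and 321 and 791 without SD 2. The cause of these differences was not tested.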
